A study of Mus musculus with 6 samples.

Results

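The transcripts of the NF-κB subunits and of their inhibitors were followed by RNA sequencing in early LPre-B cells (large pre-B cells before the completion of *Igh* recombination) of the bone marrow. The set consists of 10 genes, chosen by name: the 5 subunit genes *Nfkb1*, *Rela*, *Rel*, *Nfkb2* and *Relb*, the inhibitor genes *Nfkbia*, *Nfkbie*, *Nfkbid* and *Nfkbiz*, and *Tnfaip3*. Each was matched by its Entrez ID, and all 10 were among the 13426 genes of the table. There were 3 libraries from control (Ctrl) mice (Upf1 Flox/Flox, Mb1 +/+) and 3 from mice labelled Upf1-cKO (Upf1 Flox/Flox, Mb1 Cre/+), aged 8 to 16 weeks, of both sexes and age-matched within the study. All mice carried the floxed *Upf1* alleles on a C57BL/6 background, with loxP sites around exons 4 to 6. The Cre recombinase was expressed from the *Cd79a* (Mb1) locus, which is active in the B lineage, and Ctrl mice carried no Cre, so that effects of the *Upf1* deletion and of the Cre allele cannot be told apart. UPF1 is an RNA helicase required for nonsense-mediated mRNA decay (NMD), and the comparison asks how transcript levels at this stage differ without it.

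NF-κB transcription factors are dimers of Rel family proteins. In resting cells they are held in the cytoplasm by IκB proteins. In the canonical pathway, the IκB kinase complex phosphorylates IκB, which is then ubiquitinated and degraded, and dimers of p50 with RELA or c-REL enter the nucleus. In the non-canonical pathway, the kinase NIK (*Map3k14*) leads to processing of the *Nfkb2* product p100 to p52, which pairs with RELB. Genes of several inhibitors, such as *Nfkbia* and *Tnfaip3*, are themselves activated by NF-κB, which forms negative feedback loops.

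Recovered reads ranged from 9732498 to 11006834 per library, and the row with the most reads took 13.75% to 23.77% of them. *Upf1*, the target of the knockout, was at 240.7 ± 32.3 normalised reads in the Ctrl group and 296.8 ± 12.7 in the cKO-labelled group (SD, n = 3 each, limma log2 fold change 0.31, adjusted p 0.00696), and its locus overlaps *Cers1* and *Gdf1*. Without Ctrl 2 the *Upf1* log2 fold change was 0.19 (adjusted p 0.0358). Reads of the removed exons are not resolved in this row, so it checks neither the deletion nor the labels, and directions below are those of the libraries labelled Upf1-cKO. All 14 markers of early LPre-B identity were measured, and their summed level was 2884 to 3125 in Ctrl and 2899 to 3050 in cKO-labelled libraries. Within this sum 6 markers were higher in the latter and 3 were lower, where 27.7% of all genes were called higher and 25.0% lower. *Kit* (8.70 ± 1.85 against 39.2 ± 2.11, SD, n = 3 each), *Rag1* (71.4 ± 15.4 against 207.8 ± 13.5), *Rag2* (29.0 ± 1.14 against 66.3 ± 5.03) and *Vpreb2* (12.6 ± 4.26 against 30.6 ± 3.64) were among the higher ones. The lower ones were *Cd79a*, into which Cre is inserted (220.6 ± 11.4 against 73.3 ± 1.85), *Ptprc* (277 ± 1.44 against 154 ± 5.59) and *Il7r* (342 ± 37.5 against 224 ± 7.96). The part of these differences in the results below was not tested. The T cell markers *Cd3e*, *Cd3d*, *Cd3g*, *Cd4* and *Cd8a* had no row. The 8 neutrophil markers summed to 123, 17.9 and 14.0 in Ctrl 1 to 3 and to 329 to 462 in the cKO-labelled libraries. Of these markers 4 were called higher, as were 27.7% of all genes. Every gene of the table reached 0.537 in at least 3 libraries. The called *Elane* did so in all cKO-labelled libraries but not in all Ctrl libraries, so its call supports nothing further.

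In the cKO-labelled libraries 5 of the 10 genes were higher, 4 were lower and 1 did not pass the test. The higher genes were *Nfkb2*, *Relb*, *Nfkbie*, *Nfkbid* and *Tnfaip3*, with fold changes of group means between 1.58 and 2.23. *Nfkbia* was lower by 2.28-fold, and *Rel*, *Rela* and *Nfkb1* were lower by 1.39-, 1.33- and 1.22-fold. *Nfkbiz* differed by less than the spread between libraries. A call required an adjusted p below 0.05 in limma on log2(normalised reads + 1), with adjustment over the whole table. By that rule 27.7% of all genes were called higher and 25.0% lower, which is 52.7% in either direction. The 3 Ctrl values and the 3 cKO-labelled values did not overlap for 9 of the 10 genes (5 higher, 4 lower), and for 58.8% of all genes (30.9% higher, 28.0% lower). None of the 10 passed an absolute log2 fold change of 2, as did 1.14% of all genes upward and 0.492% downward. Calls and separated groups were thus frequent throughout the transcriptome, and the direction and size of each difference are described gene by gene. In bulk RNA, a change in the share of cells that express a gene and a change in RNA per cell cannot be told apart.

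**Figure D1:**
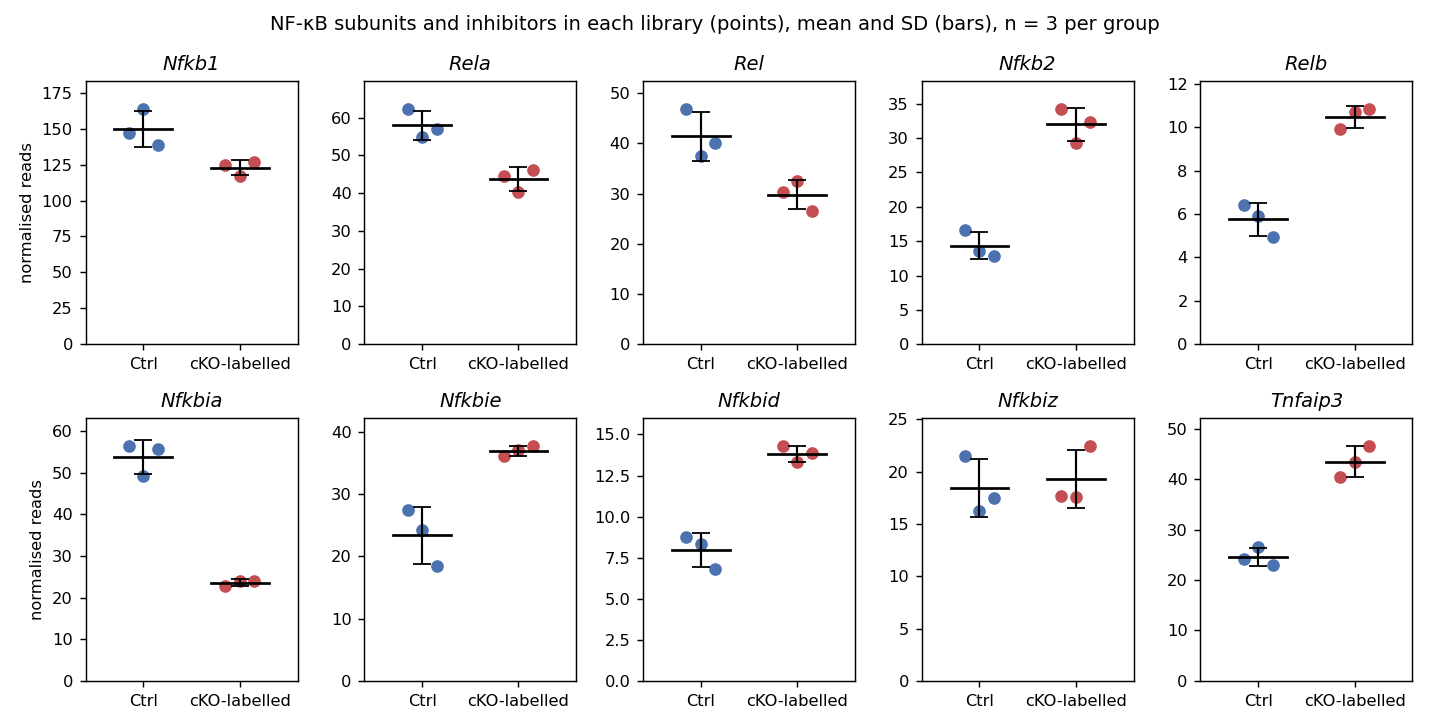
Normalised reads (vertical axes, each from 0) of the 10 genes in each library (points), with group means (lines) and SD (bars), n = 3 per group. The groups are separated in every panel other than that of Nfkbiz, where the values run from 16.2 to 22.5 and overlap.

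**Figure D2:**
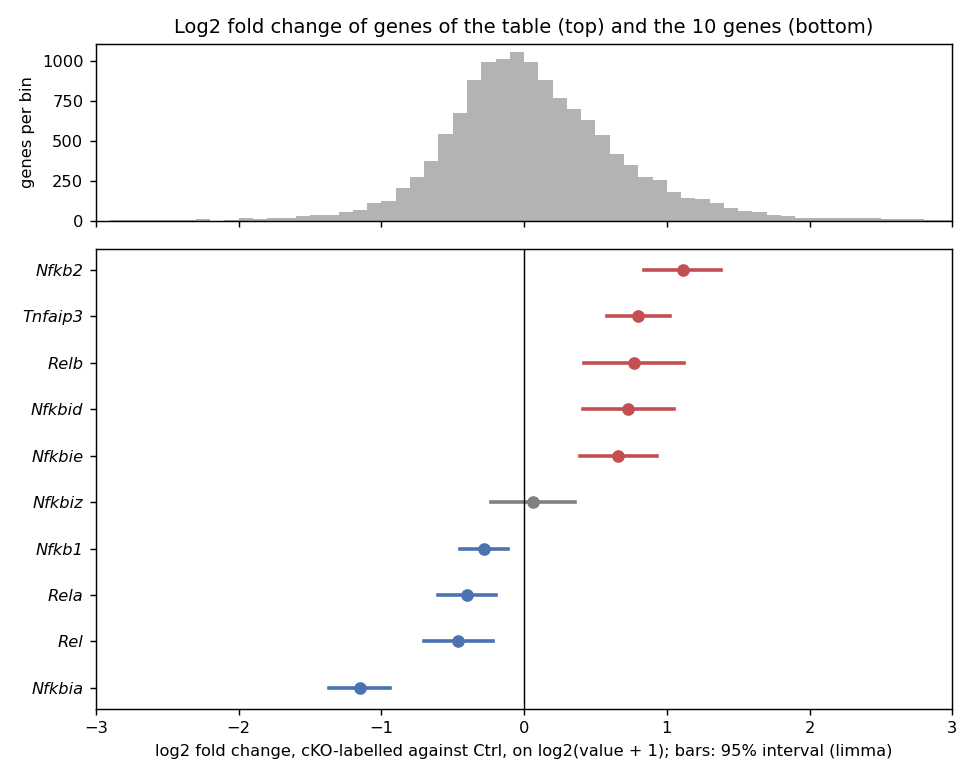
Log2 fold change of cKO-labelled against Ctrl libraries on log2(value + 1) (horizontal axis). The upper panel counts the genes of the table in bins between -3 and 3, and genes beyond these limits are not drawn. The lower panel gives each of the 10 genes with its 95% interval from limma, in red for higher, blue for lower and grey for no call. Nfkb2 lies farthest to the right at 1.11 and Nfkbia farthest to the left at -1.15.

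*Nfkb1* encodes p105, the precursor of the canonical subunit p50. Its normalised read count was 147, 164 and 139 in Ctrl 1 to 3 and 125, 117 and 127 in cKO-labelled 1 to 3. All 3 cKO-labelled values lay below the lowest Ctrl value, although by a small margin relative to the spread among Ctrl libraries. The log2 fold change was -0.28 (SE 0.082, adjusted p 0.00784). The call was lost without cKO-labelled library 2 (log2 fold change -0.24, adjusted p 0.0522), without the intensity trend in limma (adjusted p 0.0529) and with each library scaled to its total reads (-0.08, adjusted p 0.452). *Nfkb1* (Entrez ID 18033, GRCm38, chromosome 3, 135584655 to 135691969) overlaps *Gm46827*. Reads were counted without strand, so the reads of overlapping genes cannot be told apart.

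*Rela* and *Rel* encode the transactivating subunits RELA (p65) and c-REL. *Rela* was at 62.2, 54.8 and 57.0 normalised reads in Ctrl 1 to 3 and at 44.6, 40.2 and 46.2 in cKO-labelled 1 to 3. *Rel*, which is expressed mainly in lymphoid and myeloid cells, was at 46.8, 37.4 and 40.0 in Ctrl and at 30.4, 32.4 and 26.6 in cKO-labelled libraries. Both were lower in every cKO-labelled library than in any Ctrl library. The log2 fold changes were -0.40 for *Rela* (SE 0.0955, adjusted p 0.0017) and -0.46 for *Rel* (SE 0.113, adjusted p 0.0022). With libraries scaled to total reads, which shifted the median of all genes from 0.01 to 0.19, they were -0.20 (adjusted p 0.101) and -0.26 (adjusted p 0.0709), both below the shifted median. The ratio of *Rel* to *Rela* within a library, which does not depend on scaling, overlapped between the groups (difference of log2 ratios -0.06).

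*Nfkb2* and *Relb* encode the subunits of the non-canonical dimer, p100/p52 and RELB. *Nfkb2* was at 16.6, 13.6 and 12.9 normalised reads in Ctrl 1 to 3 and at 34.2, 29.4 and 32.4 in cKO-labelled 1 to 3. The lowest cKO-labelled value was well above the highest Ctrl value, and the log2 fold change of 1.11 (SE 0.128, adjusted p 8.37e-07) was at the 93.9th percentile of all genes. *Relb* had the lowest reads of the set, 49 to 128 per library. It was at 6.43, 5.91 and 4.92 normalised reads in Ctrl and at 9.90, 10.7 and 10.8 in cKO-labelled libraries, again without overlap (log2 fold change 0.77, SE 0.167, adjusted p 0.000759). *Nfkb2* (chromosome 19, 46300994 to 46312400) overlaps *Psd* and *4833438C02Rik*. Each of these was at 106 reads or fewer per library and overlapped between the groups (log2 fold changes 0.23 and 0.09, adjusted p 0.374 and 0.707).

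The promoter windows of *Nfkb2* and *Rela* are shown as examples with and without matches to the κB consensus, the sequence that NF-κB dimers recognise. These genes were picked because they also moved in opposite directions, and they do not stand for the set. *Rel* and *Nfkbia*, which were lower, had a match too. Over the table, 28.9% of genes with a match and 28.8% of those without were called higher. The windows are from RefSeq (GRCm38.p6) and run from 250 bases before to 50 bases after an annotated start, 5′ to 3′ on the gene's strand. Capitals mark matches to the κB consensus on either strand, and overlapping matches were counted as 1.
Nfkb2, chr19:46304487-46304786, plus strand: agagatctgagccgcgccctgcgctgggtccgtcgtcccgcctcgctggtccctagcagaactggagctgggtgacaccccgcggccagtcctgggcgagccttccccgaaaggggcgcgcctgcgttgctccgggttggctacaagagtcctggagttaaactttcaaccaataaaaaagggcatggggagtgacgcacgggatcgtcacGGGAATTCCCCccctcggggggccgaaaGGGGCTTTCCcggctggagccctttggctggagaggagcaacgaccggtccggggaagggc
Rela, chr19:5637291-5637590, plus strand: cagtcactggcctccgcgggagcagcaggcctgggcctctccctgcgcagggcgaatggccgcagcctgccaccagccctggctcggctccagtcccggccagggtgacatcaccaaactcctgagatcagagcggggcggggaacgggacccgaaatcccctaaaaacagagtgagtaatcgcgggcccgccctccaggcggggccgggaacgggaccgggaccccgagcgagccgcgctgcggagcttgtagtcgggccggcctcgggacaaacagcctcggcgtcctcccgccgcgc
The *Nfkb2* window held 2 matches, with first bases 39 and 11 bases before the start, and the *Rela* window held none. *Nfkb2* had 3 annotated windows, each with at least 1 match. The windows at 46305445 to 46305744 and 46305680 to 46305979 overlap and share a match at the same site.

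The lower levels of the canonical subunits and the higher levels of the non-canonical subunits changed the composition of the subunit pool. Levels were compared between genes per kb of the longest annotated protein-coding transcript. In Ctrl 1 to 3, *Nfkb2* and *Relb* together made up 10.03%, 8.73% and 8.50% of the summed level of the 5 subunits, and in cKO-labelled 1 to 3 they made up 20.8%, 20.8% and 20.6%. The mean share was thus 9.09% ± 0.83 in the former and 20.7% ± 0.13 in the latter (SD, n = 3 each). *Nfkb1* was the largest fraction in every library, at 49.5% to 55.9% in Ctrl and 47.3% to 47.6% in cKO-labelled libraries. *Rela* took 28.4% to 32.0% and 24.7% to 26.3%, respectively. The summed level itself was 65.5 to 72.1 normalised reads per kb in Ctrl and 59.9 to 64.8 in cKO-labelled libraries.

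**Figure D3:**
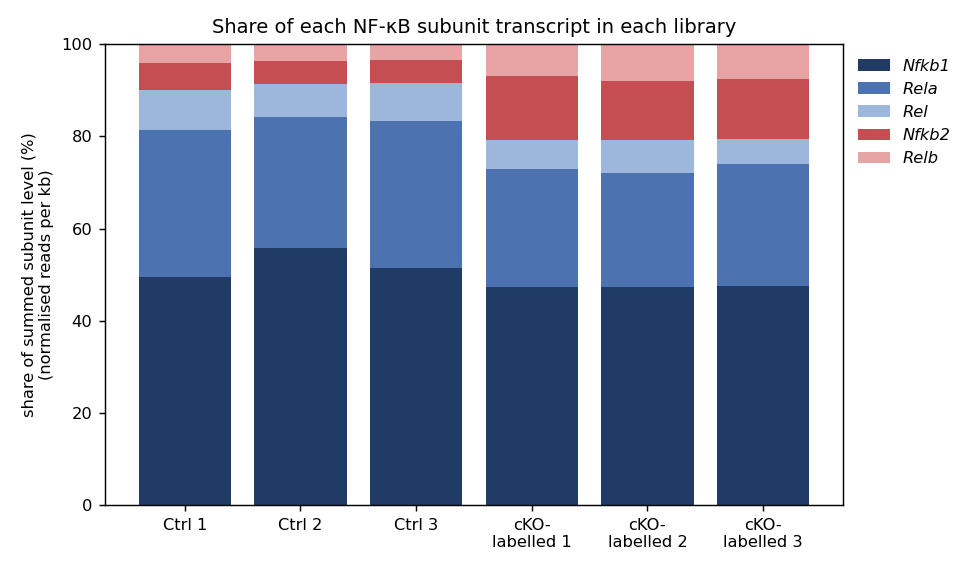
Share of each subunit transcript in the summed level of the 5 subunits (vertical axis, percent, from normalised reads per kb) in each of the 6 libraries. The combined share of Nfkb2 and Relb (red shades) is 8.50% to 10.03% in the Ctrl libraries and 20.6% to 20.8% in the cKO-labelled libraries.

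The classical IκB genes moved in opposite directions. *Nfkbia* encodes IκBα, which retains RELA-containing dimers in the cytoplasm. It was at 56.5, 49.2 and 55.8 normalised reads in Ctrl 1 to 3 and at 22.7, 24.1 and 24.0 in cKO-labelled 1 to 3. The cKO-labelled values were tightly grouped and less than the lowest Ctrl value by a wide margin. The log2 fold change of -1.15 (SE 0.102, adjusted p 2.74e-08) was at the 2.5th percentile of all genes, and it ranged from -1.26 to -0.96 over 18 alternative settings. *Nfkbie* encodes IκBε, another cytoplasmic inhibitor. Its normalised read count was 27.5, 24.2 and 18.4 in Ctrl and 36.1, 37.0 and 37.7 in cKO-labelled libraries. Ctrl values were more spread than cKO-labelled values, and the groups did not overlap (log2 fold change 0.66, SE 0.128, adjusted p 0.000293).

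The *Nfkbia* window is shown because this gene fell the most of the set. It holds a κB match, as do *Rel*, which was also lower, and the 4 higher genes with a window.
Nfkbia, chr12:55492598-55492897, minus strand: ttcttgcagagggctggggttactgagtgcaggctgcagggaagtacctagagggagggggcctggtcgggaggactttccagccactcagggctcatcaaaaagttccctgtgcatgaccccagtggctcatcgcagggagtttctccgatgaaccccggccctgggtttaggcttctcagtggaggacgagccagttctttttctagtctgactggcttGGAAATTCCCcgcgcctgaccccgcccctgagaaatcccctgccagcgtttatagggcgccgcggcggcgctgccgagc
The match began 29 bases before the start. *Nfkbie* also had 1 match, 106 bases before its start.

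*Nfkbid* and *Nfkbiz* encode the atypical IκB proteins IκBNS and IκBζ, which act on NF-κB in the nucleus. *Nfkbid* was at 8.76, 8.34 and 6.80 normalised reads in Ctrl 1 to 3 and at 14.3, 13.3 and 13.9 in cKO-labelled 1 to 3. All cKO-labelled values exceeded all Ctrl values (log2 fold change 0.73, SE 0.153, adjusted p 0.000567). *Nfkbiz* was at 21.5, 16.2 and 17.5 in Ctrl and at 17.7, 17.6 and 22.5 in cKO-labelled libraries. Ctrl 1 and cKO-labelled 3 were the highest, and the ranges overlapped over most of their length. The log2 fold change was 0.06 (SE 0.141, 95% interval -0.23 to 0.36, adjusted p 0.732), so that changes of the size seen for *Nfkbid* lie outside the interval.
Nfkbid, chr7:30422156-30422455, plus strand: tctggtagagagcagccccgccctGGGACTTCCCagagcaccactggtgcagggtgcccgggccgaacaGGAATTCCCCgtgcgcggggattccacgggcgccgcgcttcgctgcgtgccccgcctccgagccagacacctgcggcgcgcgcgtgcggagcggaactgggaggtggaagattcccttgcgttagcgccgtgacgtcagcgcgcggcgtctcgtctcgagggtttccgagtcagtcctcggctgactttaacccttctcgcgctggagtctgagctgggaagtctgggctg
This window is shown, with κB matches in capitals, as that of an inhibitor that rose. Its 2 matches began 226 and 181 bases before the start. The other 2 annotated *Nfkbid* windows held none.

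*Tnfaip3* encodes A20, a ubiquitin-editing enzyme that limits signalling from receptors to the IκB kinase complex. It was at 24.2, 26.5 and 22.9 normalised reads in Ctrl 1 to 3 and at 40.5, 43.3 and 46.6 in cKO-labelled 1 to 3. Every cKO-labelled library was above every Ctrl library, and the log2 fold change was 0.80 (SE 0.107, adjusted p 4.88e-06). *Tnfaip3* and *Nfkbia*, both inhibitors within feedback loops, thus moved in opposite directions. The genes of the table whose pattern over the 6 libraries was most like that of *Tnfaip3* were *Timm22*, *Nhlrc2* and *Bcl7b*, with Pearson's r of 0.9996, 0.9996 and 0.9991 on log2(value + 1). The libraries form 2 groups, so such values mainly describe a shared difference between groups, and they were the highest of all genes by selection.
Tnfaip3, chr10:19015361-19015660, minus strand: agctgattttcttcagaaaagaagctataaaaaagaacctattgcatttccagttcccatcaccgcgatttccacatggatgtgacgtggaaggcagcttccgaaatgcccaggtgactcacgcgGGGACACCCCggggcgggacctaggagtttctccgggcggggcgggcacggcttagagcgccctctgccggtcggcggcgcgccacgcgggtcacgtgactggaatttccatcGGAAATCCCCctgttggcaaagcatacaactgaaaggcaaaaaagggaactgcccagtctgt
This window, with κB matches in capitals, is shown for comparison with that of *Nfkbia*. It held 2 matches, beginning 125 and 12 bases before the start. The other annotated *Tnfaip3* window held none.

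Ratios within a library show these unequal changes without a choice of scaling. The log2 ratio of *Tnfaip3* to *Nfkbia* per kb was -2.71, -2.38 and -2.77 in Ctrl 1 to 3 and -0.65, -0.64 and -0.53 in cKO-labelled 1 to 3, a difference of 2.01. The log2 ratio of *Nfkb2* to *Nfkb1* was higher by 1.44 in the cKO-labelled libraries, from -3.29 ± 0.23 to -1.85 ± 0.06 (SD, n = 3). That of *Relb* to *Rela* was higher by 1.28, from -3.04 ± 0.17 to -1.76 ± 0.13. The inhibitor *Nfkbia* also fell relative to *Rela*, the subunit it retains. Its log2 ratio to *Rela* was 0.67 ± 0.07 in Ctrl and -0.10 ± 0.13 in cKO-labelled libraries. The groups did not overlap for any of these 4 ratios.

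**Figure D4:**
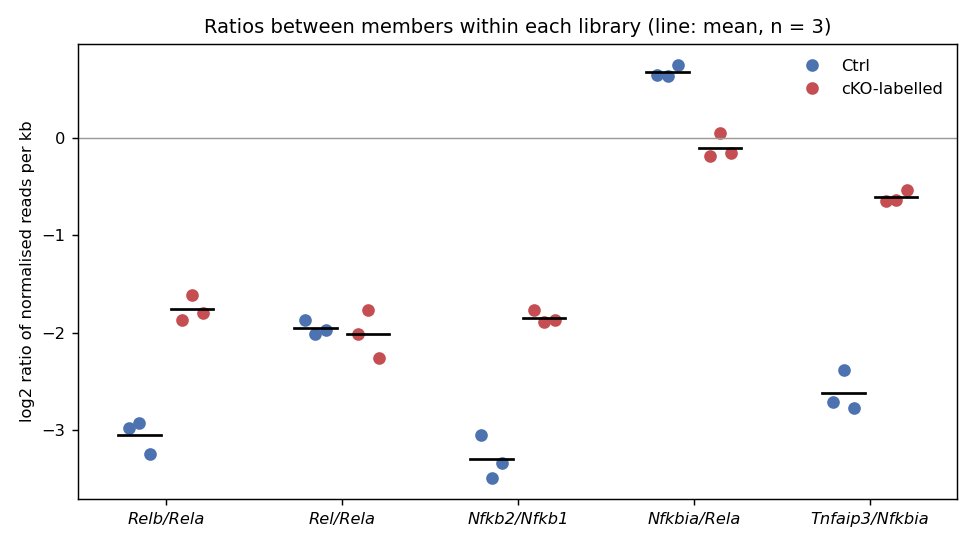
Log2 ratio of normalised reads per kb between pairs of genes (vertical axis) in each library (points), with group means (lines), n = 3. The groups are separated for Relb/Rela, Nfkb2/Nfkb1, Nfkbia/Rela and Tnfaip3/Nfkbia, and overlap for Rel/Rela.

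The order of the levels per kb also differed. In Ctrl libraries *Nfkb1* (33.7 to 39.7 normalised reads per kb) and *Nfkbia* (31.2 to 35.8) were highest with overlapping ranges, followed by *Rela* (20.2 to 22.9) and *Nfkbie* (7.56 to 11.3). Next came *Tnfaip3*, *Rel*, *Nfkbiz*, *Nfkbid* and *Nfkb2*, each of which overlapped its neighbour, and *Relb* was lowest (2.23 to 2.91). In cKO-labelled libraries *Nfkb1* (28.4 to 30.9) stood alone at the top. *Rela*, *Nfkbie* and *Nfkbia* followed with overlapping ranges between 14.4 and 17.0. *Tnfaip3* (9.15 to 10.5), *Nfkb2* (7.63 to 8.89) and *Nfkbid* (6.52 to 7.01) were separate from each other, and *Relb*, *Nfkbiz* and *Rel* (3.56 to 4.34) were at the bottom.

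Features of the promoters and transcripts were then listed for the set. RefSeq windows were matched for 7 of the 10 genes, all but *Nfkb1*, *Relb* and *Nfkbiz*. Of these 7, 6 had a κB match in at least 1 window, namely *Nfkb2*, *Nfkbia*, *Nfkbid*, *Nfkbie*, *Rel* and *Tnfaip3*, as did 12.04% of the 10193 genes of the table with a window. Both lower genes (*Rel*, *Nfkbia*) and higher genes were among them. By window, 8 of the 12 windows of the set and 8.46% of all 32851 windows held a match. Overlapping windows were counted separately, so an *Nfkb2* site shared by overlapping windows was counted in each. Across the table, genes with a match were called higher in 28.9% and lower in 24.9% of cases, and genes without a match in 28.8% and 25.3%. A match describes the letters of a window only, and binding was not measured.

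In the GENCODE annotation, a transcript with the NMD biotype was listed for 4 of the 10 genes, *Nfkb1*, *Rela*, *Nfkb2* and *Relb*, and for 29.4% of the 11951 genes with a protein-coding transcript. Of these 4 genes, *Nfkb1* and *Rela* were lower and *Nfkb2* and *Relb* were higher. Over the table, 37.2% of the genes with such a transcript were higher and 19.5% were lower, against 26% and 28.4% of those without. The read counts are per gene, and isoforms were not resolved. The longest annotated protein-coding transcript of each gene was taken as its main transcript. An exon junction more than 50 bases after the stop codon was present in none of the 10 main transcripts and in 0.4% of those of the 11951 genes. Transcripts with the NMD biotype could not be main transcripts, so these shares do not describe them and nothing is drawn from them. An ATG in the 5′ UTR was found for 7 of the 10 genes and for 52.7% of the same 11951 genes, with the most in *Nfkbiz* (6) and *Nfkbid* (4). The 3′ UTR of *Rel* (5418 bases, 96.9th percentile) was the longest of the set, and the others ranged from 336 bases in *Relb* to 1821 bases in *Tnfaip3*.

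Other genes of the pathway were described by lists. Of 96 listed genes 78 were in the table, of which 29 were higher and 14 were lower, with a median log2 fold change of 0.14 against 0.01 for all genes. The shares of all genes to read these and the following counts against are 27.7% higher and 25.0% lower. Every gene of the table reached 0.537 normalised reads in at least 3 libraries. Among the 29, *Bcl3*, *Lta*, *Cd40* and *Tnf* did so in all cKO-labelled libraries but not in all Ctrl libraries. Their place in the table thus rests on the group where they were high. Their calls support nothing further, although the counts and medians include them. Of 18 receptor genes 14 were in the table, of which 7 were higher, *Cd40* among them, and 3 were lower (median 0.47). *Tlr7*, the endosomal receptor for single-stranded RNA, rose from 0.943 ± 0.346 to 8.23 ± 0.916 normalised reads (SD, n = 3, log2 fold change 2.26, adjusted p 5.14e-08). *Tnfrsf1a*, a receptor for TNF, was higher (1.15, adjusted p 0.000317), and *Tnfrsf13b*, which encodes the BAFF and APRIL receptor TACI, was lower (-1.58, adjusted p 5.06e-08).

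Among 27 kinases and adaptors of the canonical pathway, 6 were higher and 7 were lower (median -0.01), and without Ctrl 1, cKO-labelled 1 or cKO-labelled 3 the lower genes numbered 4. *Btrc*, which encodes a β-TrCP subunit that directs phosphorylated IκB to degradation, fell the most. It was at 180, 170.3 and 178 normalised reads in Ctrl 1 to 3 and at 44.8, 52.4 and 49.5 in cKO-labelled 1 to 3. These values were far apart relative to the spread within groups (log2 fold change -1.83, SE 0.0839, adjusted p 5.07e-12). *Fbxw11*, which encodes another β-TrCP subunit, was lower by much less (-0.21, adjusted p 0.0362). The adaptor *Traf5* was lower (-1.15, adjusted p 9.26e-06) and the IκB kinase-related *Ikbke* was higher (1.21, adjusted p 1.78e-07).

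In the non-canonical arm, 2 of 4 genes were higher and none was lower (median 0.49). *Map3k14*, the gene of NIK, was at 19.6 ± 2.54 normalised reads in Ctrl libraries and rose to 33.4 ± 2.28 (SD, n = 3 each, log2 fold change 0.74, adjusted p 4.83e-05). *Traf3*, which promotes the degradation of NIK, was also higher (0.73, adjusted p 1.32e-06). Thus an activator and a negative regulator of this arm rose together with *Nfkb2* and *Relb*. Of the 2 other IκB genes, *Bcl3*, a nuclear IκB protein, was higher at a low level (0.222 ± 0.0639 against 1.40 ± 0.664, log2 fold change 0.93, adjusted p 0.00318). Only 1 to 2 reads per Ctrl library and 7 to 19 per cKO-labelled library fell on *Bcl3*, and its log2 fold change was 2.11 to 2.97 with voom, edgeR, DESeq2, a pseudocount of 0.1 or none, so its size is not well determined. No Ctrl library and all 3 cKO-labelled libraries reached the level of 0.537 that every gene of the table has in at least 3 libraries, so *Bcl3* was in the table only through the group where it was high and its call supports nothing further. *Nfkbib* was at 17.4 to 19.1 in Ctrl and 18.4 to 19.3 in cKO-labelled libraries.

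Of 12 other negative regulators 11 were in the table, of which 4 were higher and 1 was lower (median 0.15), and 2 were lower without Ctrl 3. *Pdlim2* (0.65, adjusted p 0.00139), *Tnip2* (0.62, adjusted p 0.0019) and *Otulin* (0.52, adjusted p 0.000142), which removes linear ubiquitin chains, were higher. Of 33 reported target genes, 13 had no row, among them *Il6*, *Cxcl10*, *Ccl3*, *Ccl4* and *Cd83*, and of the other 20, 9 were higher and 3 were lower (median 0.26). The 9 include *Lta* and *Tnf*, whose place in the table rests on the cKO-labelled libraries. The activation marker *Cd69* rose from 8.66 ± 2.78 to 46.8 ± 2.52 normalised reads (SD, n = 3, log2 fold change 2.34, adjusted p 1.71e-09), and *Gadd45b*, which is also a known NMD target, was higher as well (1.96, adjusted p 1.51e-09). *Irf4*, a transcription factor of pre-B cell differentiation, fell from 466 ± 9.32 to 121 ± 9.18 (-1.94, adjusted p 5.97e-13). The target list thus held genes that moved in either direction, as did the set itself. *Btrc*, *Ikbke*, *Traf5*, *Map3k14*, *Traf3*, *Tnfrsf13b*, *Bcl3*, *Nfkbib* and *Lta* each overlap another annotated gene, so their counts are uncertain to that extent.

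**Figure D5:**
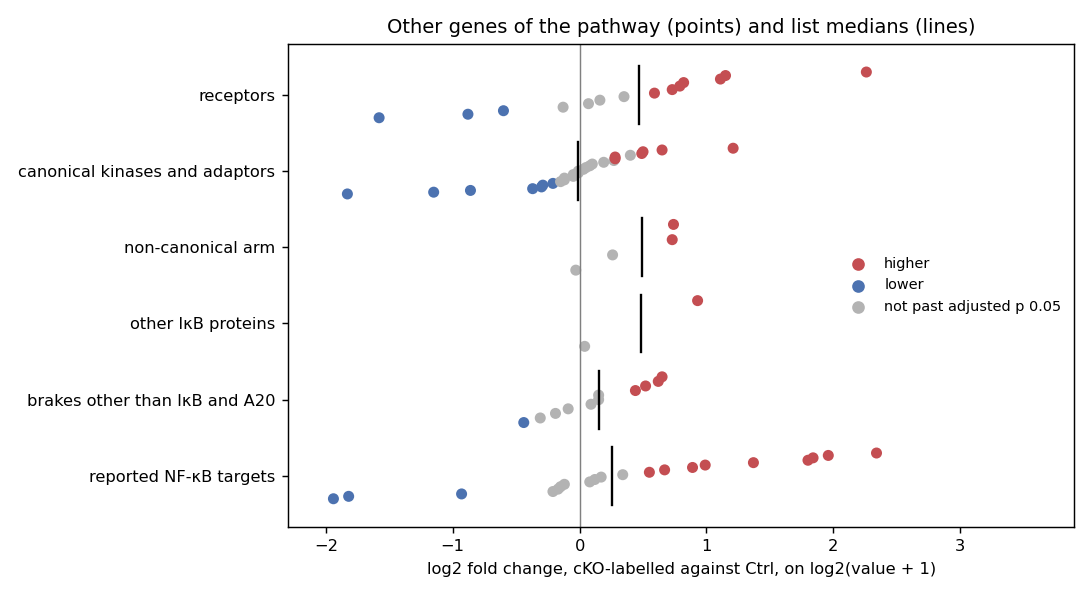
Log2 fold change of cKO-labelled against Ctrl libraries on log2(value + 1) (horizontal axis) for genes of 6 pathway lists (rows). Points are genes, red for higher, blue for lower and grey for no call, and vertical lines are list medians. Genes extend from Irf4 at -1.94 to Cd69 at 2.34.

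Markers of other cell types were set beside these results. The neutrophil markers, of which *Ngp* was the most abundant (16.6 ± 24.5 against 124 ± 26.4, adjusted p 0.0572), had the highest Ctrl sum in Ctrl 1. In that library 8 of the 10 genes also had their highest Ctrl value, among them higher genes (*Nfkb2*, *Relb*, *Nfkbie*, *Nfkbid*), lower genes (*Rela*, *Rel*, *Nfkbia*) and the uncalled *Nfkbiz*, whereas *Nfkb1* and *Tnfaip3* did not. Without Ctrl 1 the log2 fold changes were 1.21 for *Nfkb2*, 0.84 for *Relb*, 0.78 for *Nfkbie*, 0.80 for *Nfkbid*, 0.79 for *Tnfaip3* and -1.12 for *Nfkbia*, and no gene of the set changed its call. The part of neutrophil RNA in the differences between the groups was not tested.

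Of 5 dendritic cell markers 2 were higher (sums 5.71 to 8.45 in Ctrl and 33.9 to 37.8 in cKO-labelled libraries), and *Flt3*, which early progenitors also express, made up most of the sum in the cKO-labelled libraries (2.03 ± 0.495 against 29.8 ± 1.07). Of 5 monocyte and macrophage markers 1 was higher and 1 was lower (60.8 to 94.7 against 81.5 to 108), with *Lyz2* the most abundant at 35.1 ± 10.97 and 58.8 ± 9.82. Of 6 mature B and plasma cell markers, led by *Ighd* (15.7 ± 2.01 against 22.3 ± 1.68), 2 were higher and 2 were lower (26.6 to 35.8 against 36.0 to 40.6). The lower ones were *Cd2* (2.90 ± 1.13 against 0.653 ± 0.284) and *Jchain*. CD2 also marks the stage, as the study sorted early LPre-B cells as CD2-negative and late ones as CD2-positive. The part of a stage difference in the results was not tested. *Jchain* reached 0.537 in all Ctrl libraries and in no cKO-labelled library, so its call supports nothing further. The 3 erythroid markers in the table, led by *Alas2* (6.67 ± 2.71 against 7.29 ± 0.639), gave no call (6.82 to 11.8 against 8.39 to 9.42). The 3 T and NK cell markers in the table, led by *Lat* (12.2 ± 3.37 against 7.73 ± 0.756), gave 1 call in each direction (9.51 to 15.7 against 10.8 to 13.8). The higher call was *Klrb1c*, which reached 0.537 in all cKO-labelled libraries but not in all Ctrl libraries. Its call supports nothing further. Per the study's methods, cells stained for CD3e, CD11b, CD11c or other lineage markers were gated out in the sort. The part of these cells in the results was not tested.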

How the data were processed

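Early LPre-B cells were sorted from bone marrow, ribosomal RNA was depleted and directional libraries were sequenced from a single end. Per the labels and the study's methods, reads were trimmed with cutadapt 4.0, aligned to mm10 with HISAT2 without strand, counted with featureCounts 2.0.1 and processed with limma 3.48.0. The authors deposited a linear signal per Entrez ID, in which each value is a read count with 0.5 added and scaled to an effective library size (called normalised reads here). Whole reads were recovered for 100% of 80556 values (within 0.02 reads). Every gene had a value of at least 0.537 in 3 or more libraries, as a filter on low reads would leave.

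Groups came from the labels, which do not name the mouse of each library. The study's methods call its data points independent biological replicates. All 13426 genes were fitted with limma 3.58.1 (R 4.3.3) on log2(value + 1), with group as the only term, intensity trend, robust estimation and Benjamini-Hochberg adjustment. Fold changes on this scale understate those of low genes. The fit was tested on simulated data. Alternatives were other scalings, voom, edgeR 4.0.16 and DESeq2 1.42.0 on recovered reads, no trend, a replicate block, other pseudocounts, a minimum level and leaving out each library. Libraries of a group differed by more than sampling noise.

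The genes and lists were chosen with earlier results of these data known. Genes named are the 10, *Upf1*, at most 3 called genes per pathway list by absolute log2 fold change, the most abundant gene of each marker list and the 3 genes most like *Tnfaip3*. Other marker and overlapping genes (such as *Kit*, *Cd79a* and *Psd*), and *Nfkbib*, *Fbxw11*, *Lta*, *Tnf* and *Cd40*, were named after their values were seen. A marker gene that the rule names is not reported here. Names and windows came from RefSeq (GRCm38.p6) and transcript features from GENCODE M21. Protein sequences were not analysed here.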

Additional observations from a re-analysis of the deposited data

How the results depend on the processing

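The calls of *Nfkb2*, *Relb*, *Nfkbia*, *Nfkbie*, *Nfkbid* and *Tnfaip3* held under all 18 alternatives, and no called gene of the set changed sign. Scaling to total reads (median of all genes 0.19) gave 5172 higher and 1936 lower genes, so that 72.8% of calls were higher against 52.6%, with 1 lower gene of the set and with 43 higher and 9 lower pathway genes in place of 29 and 14. *Nfkb1* (-0.08), *Rela* (-0.20) and *Rel* (-0.26) then passed no longer. Leaving out the row with most reads from the totals, an alternative chosen after seeing the data, gave 62.2% (4384 and 2662), 9 lower pathway genes and -0.18 (adjusted p 0.0732) for *Nfkb1*. Median centring (median -0.10) gave 40.7% (2992 and 4355), with 25 higher and 20 lower pathway genes. Without the trend *Nfkb1* stayed at -0.28 (adjusted p 0.0529). *Nfkbiz* changed sign with median centring (-0.05) and quantile normalization (-0.06), without a call. On the recovered reads edgeR called 3645 genes higher and 3337 lower. Genes past an absolute log2 fold change of 2 numbered 153 higher and 66 lower, and 426 to 540 higher and 172 to 201 lower with voom, edgeR, DESeq2 or a smaller pseudocount or none. *Upf1* lost its call with median centring (0.20, adjusted p 0.0645) and without the trend (0.31, adjusted p 0.0707), and was at 0.51 when scaled to total reads. Scaling to total reads also gave 12 higher and 3 lower canonical kinases and adaptors (median 0.19) and 7 higher negative regulators, and median centring 4 lower negative regulators and 5 lower targets. Causes other than the shift of the median were not tested.

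Leaving out each library in turn, log2 fold changes ranged from -0.33 to -0.21 for *Nfkb1*, whose call was lost without cKO-labelled library 2 (-0.24), and from -0.05 to 0.17 for *Nfkbiz*, which was negative without Ctrl 2 (-0.02) or cKO-labelled 3 (-0.05). Lower genes of the set numbered 3 to 4, higher genes 5, and all genes 3224 to 3643 higher and 2867 to 3350 lower. Lower pathway genes numbered 10 to 14, and lower canonical kinases and adaptors were 4 in place of 7 without Ctrl 1, cKO-labelled 1 or cKO-labelled 3.

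Deviations of libraries with the same replicate number correlated at 0.082, -0.030 and -0.021, so the numbers were not taken as pairs. With the number as a replicate block, 3668 genes were higher and 3321 were lower, *Nfkb1* was at -0.28 (adjusted p 0.0157), and the set kept 5 higher and 4 lower genes. Ctrl 3 correlated better with cKO-labelled 2 (0.126) than with its own number. Within the set reads were fewest for *Relb*, at 49 to 128 per library, and intervals cover counting and library spread only.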
